A study of Mus musculus with 59 samples.

Results

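Ribosome biogenesis in the nucleolus was described in mouse embryos from somatic cell nuclear transfer (SCNT), the replacement of an egg's own nucleus by that of a body cell. The 50 genes were taken by name from the 24421 genes of the expression table. They comprised Rn45s, the precursor of the ribosomal RNAs, 7 genes of RNA polymerase I and its factors, 5 of nucleolar phosphoproteins and a helicase, 7 of the proteins that carry the modifying small nucleolar RNAs, 16 of small subunit assembly and 14 of large subunit assembly. All 50 names were found, and all passed the filter on low values in every comparison.

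The study compared SCNT embryos of the BDF1 strain without treatment and after trichostatin A (TSA), which blocks histone deacetylases and whose dose the labels do not give. Poly(A) RNA was sequenced from untreated embryos at the 1-cell stage (13 to 14 h after activation), the early 2-cell stage (20 to 21 h) and the late 2-cell stage (33 to 34 h), and from TSA-treated embryos at the late 2-cell stage (33 to 34 h). The labels name 5 libraries in each of these 4 groups, name the cumulus cell as the donor of the nucleus, and describe oocytes from superovulated females 5 to 7 weeks old. The table holds 1 value per gene and group, on the scale log2(FPKM + 1), where FPKM is a fragment count divided by transcript length and library size.

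With 1 value per gene and group, no spread between embryos could be computed, no test was possible, and every difference below is a description of these 4 columns. Levels are given as FPKM, which is per length and so can be set side by side between genes, always in the order 1-cell, early 2-cell, late 2-cell and late 2-cell with TSA. Differences are on the log2(FPKM + 1) scale, where 1 is 2-fold, and the added 1 makes differences of weakly expressed genes too small. The number of fragments behind each value is unknown.

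The columns were checked against stage and cell type markers. All 10 oocyte genes were at 1 FPKM or more in every column, and they summed to 3852, 2948, 1659 and 1108 FPKM. Of 13 late 2-cell genes in the table (14 listed), 6, 5, 12 and 12 reached 1 FPKM, and they summed to 176, 269, 391 and 632 FPKM. Of the 16 cumulus and granulosa genes, 4, 4, 5 and 6 reached 1 FPKM, and they summed to 35.3, 27.7, 68.9 and 86.5 FPKM, mostly from Nr5a2, which early embryos also express, and without it to 15.7, 13.9, 16.2 and 17.5. Of these 16, Amh was listed at 0 in the 1-cell column, Lhcgr, Amh, Inha and Foxl2 in the early 2-cell column, Inha, Inhba and Ptx3 in the late 2-cell column, and Fshr, Lhcgr, Inha and Cyp11a1 with TSA. From early to late 2-cell, 7 of the 10 oocyte genes were lower (not Zp1, Zp3 and Gdf9). Of the 13 late 2-cell genes, 11 were higher (not Tcstv1 and Tcstv3). Of all genes that passed the filter on low values, 71.0% were higher at that step. With TSA all 10 oocyte genes were lower, while 8 of the 13 late 2-cell genes were higher, most of the summed difference coming from Usp17lb at 276 against 109.5 FPKM, and 5 were lower (Zscan4b, Zscan4c, Zscan4d, Zscan4f and Tcstv1). Of all genes that passed the filter, 43.3% were higher with TSA. The part of these markers in the differences described below was not tested. The total FPKM per column was 505140 to 523069, and 9419, 9477, 12215 and 11912 genes reached 1 FPKM. Embryos of the 1-cell column hold 1 cell and those of the 2-cell columns 2 cells. FPKM is divided by library size, so the amount of RNA per embryo or per cell cannot be read from it.

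Ribosomes are built in the nucleolus. RNA polymerase I transcribes the ribosomal DNA repeats into a long precursor, small nucleolar RNAs guide its methylation and pseudouridylation, and assembly factors cut and fold it into the small and large subunits. Early mouse embryos begin with ribosomes stored in the egg and with nucleolus precursor bodies that do not yet transcribe ribosomal DNA, and transcription by RNA polymerase I starts around the 2-cell stage.

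In the first step, from 1-cell to early 2-cell, most of the 50 genes were lower, with a median difference of -0.39 against -0.03 over the 13012 genes kept. At that step 15 of 50 were above 0, against 45.4% of all genes, 1 was at least 2-fold higher, against 2.89%, and 10 were at least 2-fold lower, against 5.53%. In the next step, from early to late 2-cell, the median was 2.20 against 0.89 over all genes. There 48 were above 0, against 71.0%, 42 were at least 2-fold higher, against 47.1%, and 1 was at least 2-fold lower, against 10.8%. Over both steps, late minus 1-cell, 46 were above 0, against 68.0%, with 34 at least 2-fold higher, against 45.2%, 1 lower, against 13.6%, and a median of 1.73 against 0.81.

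With TSA, 42 of 50 lay above the untreated late 2-cell column, against 43.3% of all genes, by a median of 0.33 against -0.08 over 12756 genes. None was 2-fold higher or lower, against 2.51% and 4.08% of all genes. The cumulative curves of these differences lie to the left of the curve for all genes at the first step through most of their range, and to the right of it at the next step and with TSA until the highest values.

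**Figure D1:**
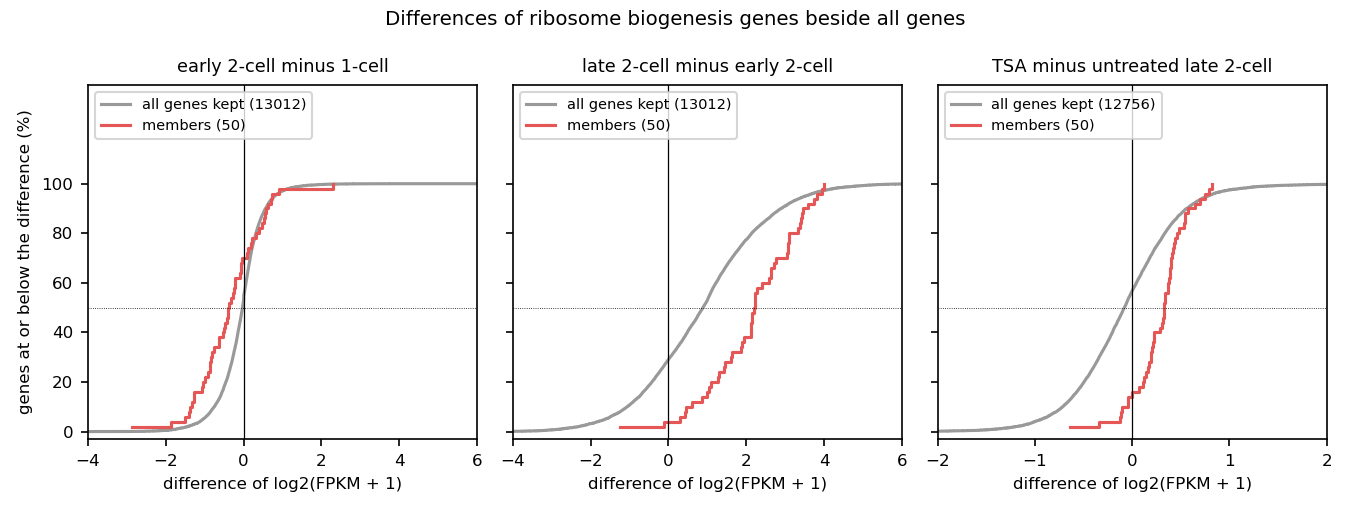
Cumulative share of genes (%) against the difference of log2(FPKM + 1) for the 50 ribosome biogenesis genes (red) and all genes kept (grey), for early 2-cell minus 1-cell, late minus early 2-cell, and TSA minus untreated late 2-cell. The red curve crosses 50% at -0.39, 2.20 and 0.33, and the grey curve at -0.03, 0.89 and -0.08.

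The sequences before the start sites were read for words that transcription factors of growth-related genes are known to bind. RefSeq promoter windows of build GRCm38.p6, 250 bases before to 50 after the start, matched 42 of the 50 genes. Only the first window listed for each gene was read, and other start sites of a gene were not. The E-box CACGTG, which reads the same on both strands and is bound by MYC with MAX and by related factors, stood in 10 of the 42 (23.8%), against 7.24% of all 27025 promoters and 10.1% of the 10071 promoters of genes kept in a comparison. The word CCGGAAG, searched on both strands and bound by ETS factors, stood in 15 (35.7%), against 9.12% of all promoters and 17.4% of those of genes kept.

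The promoters below show the 2 words at genes whose levels took different courses: Rrn3, which holds 2 E-boxes, Nop2, which was low until the late 2-cell stage, Utp18, which was lower at each later stage, and Nhp2, with an ETS word alone. Each line gives the 250 bases before the start, 5′ to 3′ in the direction of the gene, with capitals marking CACGTG and CCGGAAG or its reverse complement. Rrn3 lies at chr16:13780449-13780698 on the plus strand, Nop2 at chr6:125131633-125131882 on the plus strand, Utp18 at chr11:93885767-93886016 on the minus strand, and Nhp2 at chr11:51619523-51619772 on the plus strand.
Rrn3: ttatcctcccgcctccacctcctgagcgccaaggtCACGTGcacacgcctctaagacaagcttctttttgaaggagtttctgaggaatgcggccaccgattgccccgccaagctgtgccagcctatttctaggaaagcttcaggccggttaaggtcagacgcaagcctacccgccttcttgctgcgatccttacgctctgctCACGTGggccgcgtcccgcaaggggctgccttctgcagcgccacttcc
Nop2: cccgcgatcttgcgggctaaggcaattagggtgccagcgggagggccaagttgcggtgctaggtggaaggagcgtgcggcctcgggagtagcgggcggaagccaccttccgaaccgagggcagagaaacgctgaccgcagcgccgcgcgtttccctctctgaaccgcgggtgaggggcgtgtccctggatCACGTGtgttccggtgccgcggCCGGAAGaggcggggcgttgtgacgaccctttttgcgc
Utp18: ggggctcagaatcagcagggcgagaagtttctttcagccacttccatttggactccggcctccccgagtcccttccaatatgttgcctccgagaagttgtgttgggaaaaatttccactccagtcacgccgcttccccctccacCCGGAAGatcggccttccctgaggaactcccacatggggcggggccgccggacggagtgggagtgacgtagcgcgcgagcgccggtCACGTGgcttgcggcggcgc
Nhp2: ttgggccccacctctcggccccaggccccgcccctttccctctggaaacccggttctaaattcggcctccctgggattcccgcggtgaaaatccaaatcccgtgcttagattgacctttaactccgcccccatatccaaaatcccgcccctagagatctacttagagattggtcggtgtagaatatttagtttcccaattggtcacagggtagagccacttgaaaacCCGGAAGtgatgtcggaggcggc
The E-boxes of Rrn3 begin 215 and 48 bases before its start, that of Nop2 60 bases before and that of Utp18 20 bases before. Within the 250 bases shown, an ETS word begins 38 bases before the start of Nop2, 106 before that of Utp18 and 23 before that of Nhp2. Over the whole 300-base window Rrn3 and Utp18 each hold 2 ETS words. Of these, 0 for Rrn3 and 1 for Utp18 lie wholly within the 250 bases shown.

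The other genes with an E-box in the whole 300-base window were Cirh1a, Imp4, Ltv1, Pes1, Tsr1, Utp20 and Wdr43. All 10 genes with an E-box lay above 0 with TSA (median 0.40), and of the 32 without one, 25 did (median 0.31). Of the 50 genes 42 did, against 43.3% of all genes. Whether an E-box goes with the TSA difference was not tested. From early to late 2-cell the medians were 2.15 with and 2.34 without. There 7 of the 10 and 30 of the 32 were at least 2-fold higher, against 47.1% of all genes. For late minus 1-cell the medians were 0.92 with and 1.77 without, and 5 of the 10 and 25 of the 32 were at least 2-fold higher, against 45.2%. The other words searched, on both strands, were the NRF1 core TGCGCA in 14.3% of the 42 against 14.4% of the genes kept, the YY1 word AAGATGG in 4.76% against 7.43%, TATAAA in 4.76% against 7.60%, and the GC box GGGCGG in 73.8% against 61.0%. Over all promoters these 4 words stood in 8.06%, 6.48%, 14.2% and 35.9%. ETS and GC box words overlapped in Rrn3 and Tsr1, and the median GC content was 59.5% for the 42 against 60.3% for genes kept. A word in a window is a description of sequence, and binding was not measured.

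Rn45s was the highest gene of both late 2-cell columns. Its level was 1621, 2331, 8474 and 8906 FPKM, at rank 33, 23, 1 and 1 of its column. It was higher at each later stage, with differences of 0.52, 1.86 and, over both steps, 2.39. The late minus early difference was 0.92 under median-ratio scaling and 3.37 under quantile normalization, and that over both steps 1.51 and 3.79. With TSA the difference was 0.07, within the middle 50% of all genes (-0.41 to 0.25), and 0 under quantile normalization, where both columns have the same highest value. Its share of the summed FPKM was 0.321%, 0.449%, 1.62% and 1.74%.

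The 49 other genes summed to 2859, 2187, 4274 and 4950 FPKM, so Rn45s was 0.567, 1.07, 1.98 and 1.80 times their sum. In the plot of summed levels, Rn45s passes the other genes between the 1-cell and the early 2-cell column. Since the labels give poly(A) RNA and this precursor has no poly(A) tail, other RNAs without a tail were set beside it. The 13 structural RNAs of this kind in the table, of 33 listed, summed to 26.5, 32.8, 16.1 and 42.9 FPKM. The 110 small nucleolar RNAs in the table summed to 25.9, 89.7, 380.2 and 373 FPKM. What capture of RNA without a tail adds to the Rn45s level was not tested. The ribosomal RNAs are cut from this precursor, and the part of finished ribosomal RNAs in the Rn45s level was not tested either.

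**Figure D2:**
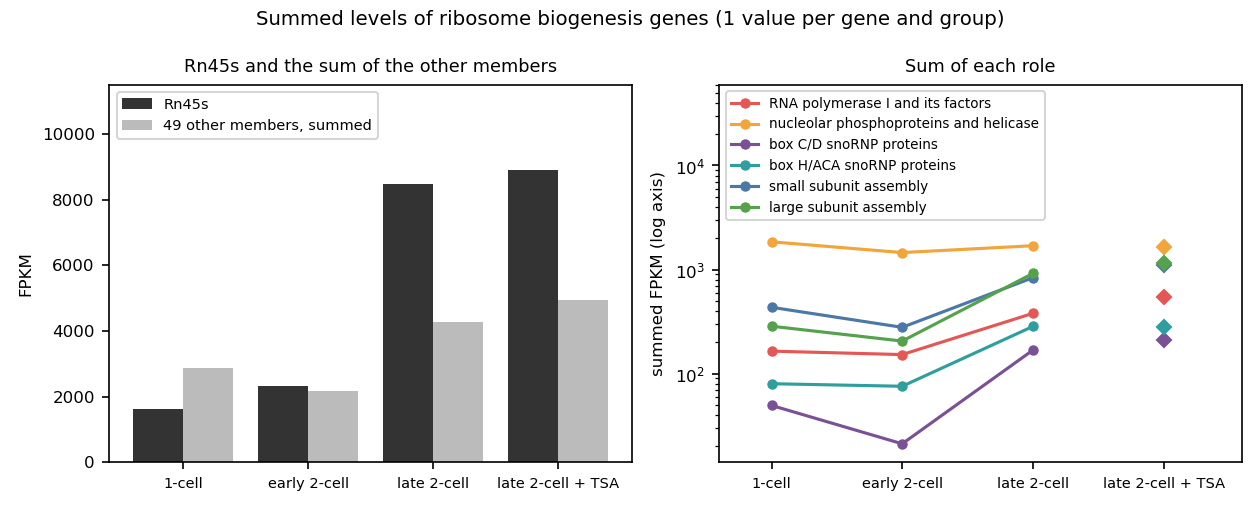
Left, Rn45s and the sum of the 49 other genes (FPKM, bars from 0) in the 4 columns; right, summed FPKM of each role on a log axis, with the untreated stages joined by lines and TSA as diamonds. Rn45s goes from 1621 to 8906 FPKM, and the sums of all 6 roles are lowest at the early 2-cell stage.

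RNA polymerase I genes had a median difference of -0.10 at the first step and 3.09 at the next, the highest median of the 6 protein roles at that step. Polr1a, the largest catalytic subunit, was at 6.46, 3.13, 24.5 and 31.0 FPKM, and Polr1b, the second catalytic subunit, at 2.61, 2.44, 33.9 and 39.3. Both were lowest at the early 2-cell stage and highest with TSA. Polr1c, a subunit shared with RNA polymerase III, was at 4.19, 5.45, 53.8 and 78.8 FPKM. Its partner Polr1d was at 10.5, 11.4, 21.4 and 16.7 FPKM, a late minus early difference of 0.85 that turned below 0 under median-ratio scaling and quantile normalization. The 2 subunits of this pair stood apart with TSA, at 0.54 for Polr1c and -0.34 for Polr1d.

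Polr1e, an accessory subunit that helps the enzyme begin transcription, was at 2.31, 1.73, 28.1 and 50.4 FPKM. Its TSA difference of 0.82 was the highest of the 50. Ubtf, the DNA-binding factor that keeps ribosomal DNA repeats open, was at 3.51, 2.16, 43.6 and 51.0 FPKM, a late minus early difference of 3.82. Rrn3, which joins the polymerase to its promoter and is regulated by growth signals, was the highest of the 7 in every column. Its levels were 135, 126, 174 and 283 FPKM, with a TSA difference of 0.70. The 5 Polr1 genes of the list were at 11.4 FPKM or less at the early 2-cell stage while Rrn3 was above 100, and the late minus early difference of Rrn3, 0.46, turned below 0 under median-ratio scaling.

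The nucleolar phosphoproteins were the most abundant role, led by nucleophosmin. Npm1, nucleophosmin, a histone and ribosome chaperone, was at 1544, 1318, 1221 and 1140.0 FPKM. It was lower at each later stage in the deposited values, although the late minus early difference of -0.11 and the late minus 1-cell difference of -0.34 were above 0 under quantile normalization. Ncl, nucleolin, which binds the nascent precursor, was at 259, 106, 331 and 322 FPKM. Its early 2-cell value was the lowest, and the differences were -1.28 and then 1.63.

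Nolc1, a chaperone of small nucleolar ribonucleoproteins, was at 19.9, 12.4, 82.3 and 114 FPKM and had the highest TSA difference of the role (0.46). Tcof1, treacle, which brings Ubtf and the polymerase together, was at 10.4, 8.80, 12.2 and 16.0 FPKM, and its late minus early difference of 0.43 turned below 0 under median-ratio scaling and quantile normalization. Ddx21, an RNA helicase that acts on ribosomal DNA and small nucleolar RNAs, was at 13.1, 9.72, 46.0 and 60.7 FPKM. The role's median was -0.39 at the first step, 1.63 at the next and 0.37 with TSA.

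**Figure D3:**
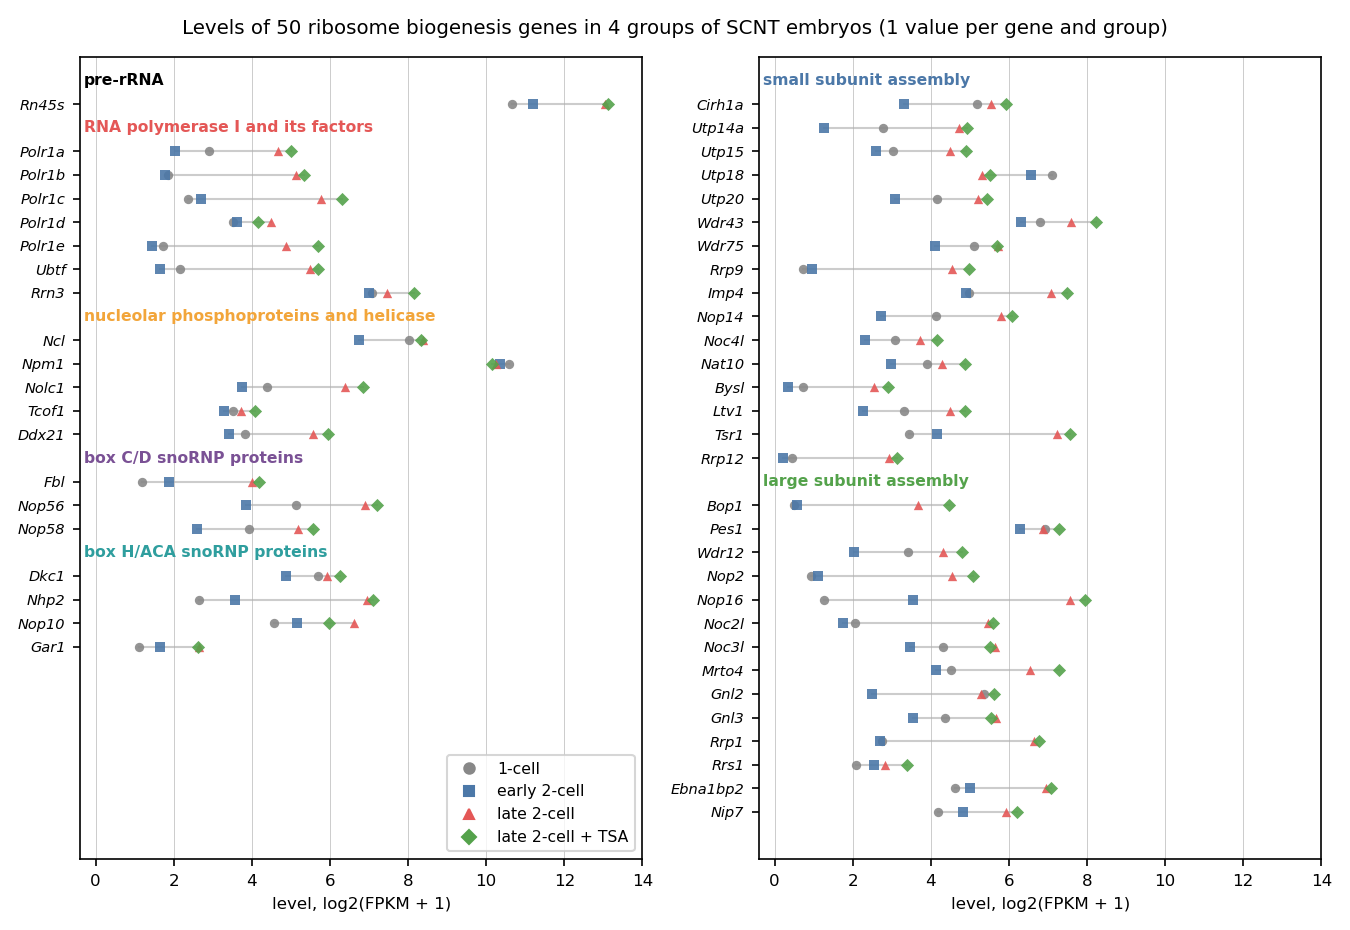
Level of each of the 50 genes, log2(FPKM + 1), by role, with 1 marker for each of the 4 columns and a grey line over their range. Most blue squares (early 2-cell) lie left of the grey circles (1-cell), and red triangles and green diamonds (late 2-cell without and with TSA) lie to the right; Npm1 and Utp18 run the other way.

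Box C/D proteins, which methylate ribosomal RNA, were lowest at the early 2-cell stage except for the enzyme itself. Fbl, fibrillarin, the methyltransferase, was at 1.29, 2.70, 15.0 and 17.1 FPKM, higher at each stage. Nop56 and Nop58, the paired core proteins of the same particle, were at 34.0, 13.4, 117 and 146 FPKM and at 14.2, 5.08, 35.6 and 46.8 FPKM. Both were over 2-fold lower at the first step (-1.28 and -1.32), where Fbl was higher by 0.69. All 3 were above 0 with TSA, by 0.18 to 0.38, against 43.3% of all genes.

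Among the box H/ACA proteins, which turn uridine into pseudouridine, 3 of 4 were higher at the first step, against 45.4% of all genes. Of the 50 genes, 35 were lower there. Nhp2, an RNA-binding core protein, was at 5.26, 10.8, 123 and 137 FPKM, a late minus early difference of 3.39. Nop10, the smallest core protein, was at 22.7, 34.4, 96.4 and 61.5 FPKM. Its TSA difference of -0.64 was the lowest of the 50. Gar1, which helps release the modified RNA, was at 1.14, 2.14, 5.22 and 5.21 FPKM, and its TSA difference of -0.0035 was above 0 under each of the 4 other scalings. Dkc1, the pseudouridine synthase and the 1 gene of the 4 that was lower at the first step (-0.83), was at 50.8, 28.2, 59.5 and 74.8 FPKM. With TSA, Dkc1 and Nhp2 were at 0.33 and 0.16, and the role's median of 0.08 was the lowest of the 6.

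At the first step 14 of 16 small subunit assembly genes were lower and 2 higher, against 45.4% of all genes higher. At the next step 15 of 16 were at least 2-fold higher, against 47.1% of all genes. The first group to join the precursor includes Cirh1a (RefSeq symbol Utp4), Utp15, Wdr43 and Wdr75. Cirh1a was at 35.3, 8.99, 45.7 and 59.4 FPKM, a first-step difference of -1.86. Wdr43 was at 110.2, 78.2, 190.2 and 299 FPKM, the highest level of the small subunit role with TSA. All 4 genes of this group were lowest at the early 2-cell stage. Wdr75 was at 33.4, 16.4, 52.2 and 50.7 FPKM, and its TSA difference of -0.04, the only one of the 16 below 0, turned above 0 under median-ratio scaling. Utp15 was at 7.19, 5.06, 21.7 and 28.9 FPKM.

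Utp18, of the next group to join, did not follow the rest. It was at 136, 93.3, 38.6 and 44.4 FPKM, the 1 gene of the 50 at least 2-fold lower from early to late 2-cell (-1.25), joined by Npm1 under median-ratio scaling. Utp14a, which activates the helicase that releases the U3 guide RNA, was at 5.82, 1.41, 25.5 and 29.3 FPKM, and Utp20, a large scaffold protein, at 16.9, 7.43, 36.2 and 42.3. Rrp9, a protein of the U3 particle, was at 0.655, 0.935, 22.1 and 30.4 FPKM, under 1 at both earlier stages. Imp4, which helps U3 pair with the precursor, was at 30.7, 29.0, 133 and 179.6 FPKM, and Nop14 and its partner Noc4l were at 16.4, 5.61, 54.7 and 67.1 FPKM and at 7.42, 3.95, 12.3 and 16.8 FPKM. Rrp9 and Utp14a had the largest late minus early differences of the role (3.58 and 3.46).

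Nat10, the acetyltransferase of small subunit RNA, was at 13.8, 6.92, 18.6 and 28.2 FPKM, a TSA difference of 0.58. Later steps of small subunit maturation and export involve Bysl, Ltv1, Tsr1 and Rrp12. Bysl was at 0.657, 0.259, 4.89 and 6.46 FPKM and Rrp12 at 0.368, 0.161, 6.58 and 7.79, so that both were under 1 FPKM until the late 2-cell stage. Ltv1 was at 8.93, 3.83, 21.4 and 28.4 FPKM. Tsr1, a GTPase-like factor of the last maturation step, was at 9.80, 16.7, 151 and 189 FPKM and, with Rrp9, was 1 of the 2 genes of the role that were higher at each stage. With TSA, 15 of the 16 lay above 0, against 43.3% of all genes, with a median of 0.36. The 3 highest were Wdr43 (0.65), Nat10 and Rrp9 (0.44), and the 3 lowest Wdr75, Utp14a (0.19) and Utp18 (0.20).

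At the first step 6 of 14 large subunit assembly genes were higher and 8 lower, near the 45.4% of all genes that were higher. Pes1, Bop1 and Wdr12 form 1 complex that is needed to mature the large subunit RNA. Pes1 was at 119, 76.6, 117 and 155 FPKM, Bop1 at 0.422, 0.501, 11.8 and 21.1 and Wdr12 at 9.75, 3.12, 18.8 and 26.7. The 3 partners were far apart in level at the 1-cell stage, Pes1 high and Bop1 under 1 FPKM. Within the whole large subunit role, the highest gene was 283 times the lowest in the 1-cell column (Pes1 over Bop1), 153 times in the early 2-cell column, 30.4 times in the late 2-cell column and 26.0 times with TSA. The late minus early difference was 3.09 for Bop1, 2.27 for Wdr12 and 0.60 for Pes1, the last of which turned below 0 under median-ratio scaling.

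Nop16, a nucleolar factor of large subunit precursors, had the largest stage difference of the 50. It was at 1.38, 10.8, 187 and 246 FPKM, the 1 gene at least 2-fold higher at the first step (2.30) and 6.30 higher over both steps. Nop2, a methyltransferase of large subunit RNA, was at 0.896, 1.15, 22.4 and 32.9 FPKM. Rrp1, a scaffold of early large subunit particles, was at 5.70, 5.47, 98.9 and 109 FPKM, a late minus early difference of 3.95, second to that of Nop16 (4.00). Its first-step difference of -0.05 turned above 0 under median-ratio scaling and quantile normalization.

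Gnl2, a GTPase that acts on large subunit particles before export, had the lowest difference of the 50 at the first step. It was at 40.0, 4.66, 37.7 and 47.9 FPKM, with differences of -2.86 and then 2.78. Its late minus 1-cell difference was -0.08 as deposited, -0.93 under median-ratio scaling and -0.63 under quantile normalization. Gnl3, nucleostemin, a related GTPase, was at 19.7, 10.7, 49.7 and 45.9 FPKM. Noc2l and Noc3l, partners in large subunit particles, were at 3.16, 2.34, 43.5 and 47.3 FPKM and at 19.0, 10.0, 49.2 and 45.0 FPKM. Gnl3 and Noc3l were 2 of the 8 genes below 0 with TSA (-0.11 and -0.13).

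Mrto4, a placeholder for the stalk protein of the large subunit, was at 21.9, 16.5, 91.7 and 155 FPKM and had the third highest TSA difference (0.75), after Polr1e and Bop1 (0.80). Ebna1bp2 and Rrs1 act together on early large subunit particles. Ebna1bp2 was at 23.6, 31.3, 123 and 133 FPKM. Rrs1 was at 3.21, 4.80, 6.16 and 9.47 FPKM and was within 2-fold in all 4 comparisons. Nip7, which binds large subunit precursors, was at 17.2, 27.3, 59.3 and 73.5 FPKM. With TSA the large subunit role had 12 of 14 above 0, against 43.3% of all genes, and a median of 0.37. Its 3 highest were Bop1, Mrto4 and Rrs1 (0.55) and its 3 lowest Noc3l, Gnl3 and Noc2l (0.12).

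The stage differences of all genes depended on how the columns were scaled. Median-ratio scaling moved the median of all genes by -0.71 and quantile normalization by -0.87 for late minus early 2-cell, and by -0.67 and -0.79 for late minus 1-cell. The split of 2-fold genes went from 6128 higher and 1399 lower to 3785 and 2992 with median-ratio scaling and 3343 and 3363 with quantile normalization for late minus early, and from 5883 and 1774 to 3805 and 3320 and to 3385 and 3570 for late minus 1-cell. The members' median for late minus early was 1.31 and 1.37 under these 2 scalings, 1.13 and 1.35 above that of all genes, beside 1.31 above it in the deposited values. At the first step the split of all genes went from 376 higher and 720 lower to 504 and 565 with quantile normalization.

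Counted against the median of all genes, by construction 50.0% of all genes lie above it in each comparison. Of the 50 genes, 15 lay above it at the first step, 43 at the next, 36 over both steps and 45 with TSA. A dip, with a lower value at the early 2-cell stage than at 1-cell and a higher one at the late 2-cell stage, was found in 33 of the 50 in the deposited values, against 36.9% of all genes. Of these 33, 31 ended above their 1-cell level in the deposited values and Pes1 and Gnl2 did not. Under median-ratio scaling the late minus 1-cell difference of another 9 turned below 0 (Rrn3, Ncl, Tcof1, Dkc1, Cirh1a, Wdr43, Wdr75, Noc4l and Nat10). Of the 50 genes, 37 were then above 0 over both steps in place of 46, against 53.1% of all genes under that scaling. Beside the 33 with a dip, 15 were higher at each stage in the deposited values, and 2, Npm1 and Utp18, were lower at each stage. The shares of all genes with these 2 courses were not computed. For late minus early 2-cell, Polr1d and Rrs1, of the 15, turned below 0 under median-ratio scaling. Under quantile normalization Polr1d, Gar1 and Rrs1 did, and Npm1 turned above 0. The dip was found in 13 of 16 small subunit genes, 8 of 14 large subunit genes, 5 of 7 RNA polymerase I genes, 4 of 5 phosphoproteins, 2 of 3 box C/D proteins and 1 of 4 box H/ACA proteins. The stage comparisons share columns, so these counts are not independent of one another.

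Taken as 1 group, the genes also came closer together in level. The SD of log2(FPKM + 1) over the 49 protein-coding genes, which is their spread around their own mean and no error, was 2.11, 1.96, 1.54 and 1.52 in the 4 columns. The same SD over all genes was not computed. From early to late 2-cell it was higher within the box C/D (0.99 to 1.45) and box H/ACA (1.59 to 1.97) proteins and lower within each other protein role. The median level of the 49 was 10.5, 7.43, 43.6 and 47.9 FPKM. Their median percentile among all genes of the table was 82.3, 80.3, 90.3 and 91.1, and 5, 4, 0 and 0 of the 49 were under 1 FPKM.

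With TSA the differences were small and above 0 in most genes, and 9 of the 50 were 0.5 or more higher, against 12.2% of all genes. The 9 were Polr1e, Bop1, Mrto4, Rrn3, Wdr43, Nat10, Rrs1, Polr1c and Nop2, of which 3 belong to RNA polymerase I, 2 to small subunit and 4 to large subunit assembly. The 8 below 0 were Nop10, Polr1d, Noc3l, Gnl3, Npm1, Ncl, Wdr75 and Gar1. Under median-ratio scaling 46 lay above 0, against 50.6% of all genes, with Ncl, Npm1, Wdr75 and Gar1 changing sign. Under quantile normalization 43 did, against 48.9%. The split of all 2-fold genes went from 320 higher and 520 lower to 395 and 397 with median-ratio scaling and 394 and 379 with quantile normalization.

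**Figure D4:**
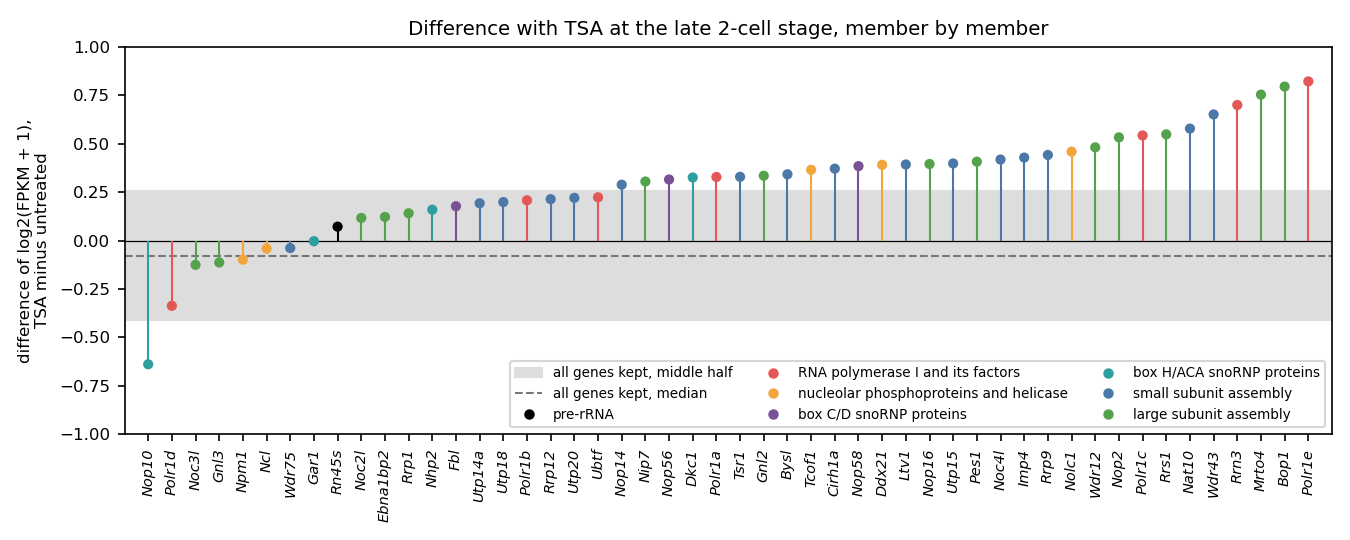
Difference of log2(FPKM + 1), TSA minus untreated late 2-cell, for each of the 50 genes in order, coloured by role; the grey band is the middle 50% of all genes kept (-0.41 to 0.25) and the dashed line their median (-0.08). The points run from -0.64 for Nop10 to 0.82 for Polr1e, and 45 of 50 lie above the dashed line.

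Other pathway genes from lists of 14 further RNA polymerase I genes, 45 small subunit genes, 51 large subunit genes and 13 genes of the RNA exosome, which trims precursor RNA, were counted the same way. Genes are named as highest or lowest in these lists only where the larger of the 2 values compared reached 5 FPKM. Of these 123 genes, 121 were kept. At the first step 4 were at least 2-fold higher and 23 lower, against 2.89% and 5.53% of all genes, with a median of -0.35. At the next 92 were higher and 4 lower, against 47.1% and 10.8%, with a median of 2.05. Over both steps 77 were higher and 10 lower, against 45.2% and 13.6%, with a median of 1.59. With TSA 85 of 121 were above 0, against 43.3% of all genes, with a median of 0.27, and 1 was 2-fold higher, against 2.51%. The medians with TSA were 0.29 for both subunit lists, against -0.10 for the other RNA polymerase I genes, of which 5 of 13 were above 0 (0.00044 and 7 of 13 with median-ratio scaling), and 0.0032 for the exosome, of which 7 of 13 were.

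**Figure D5:**
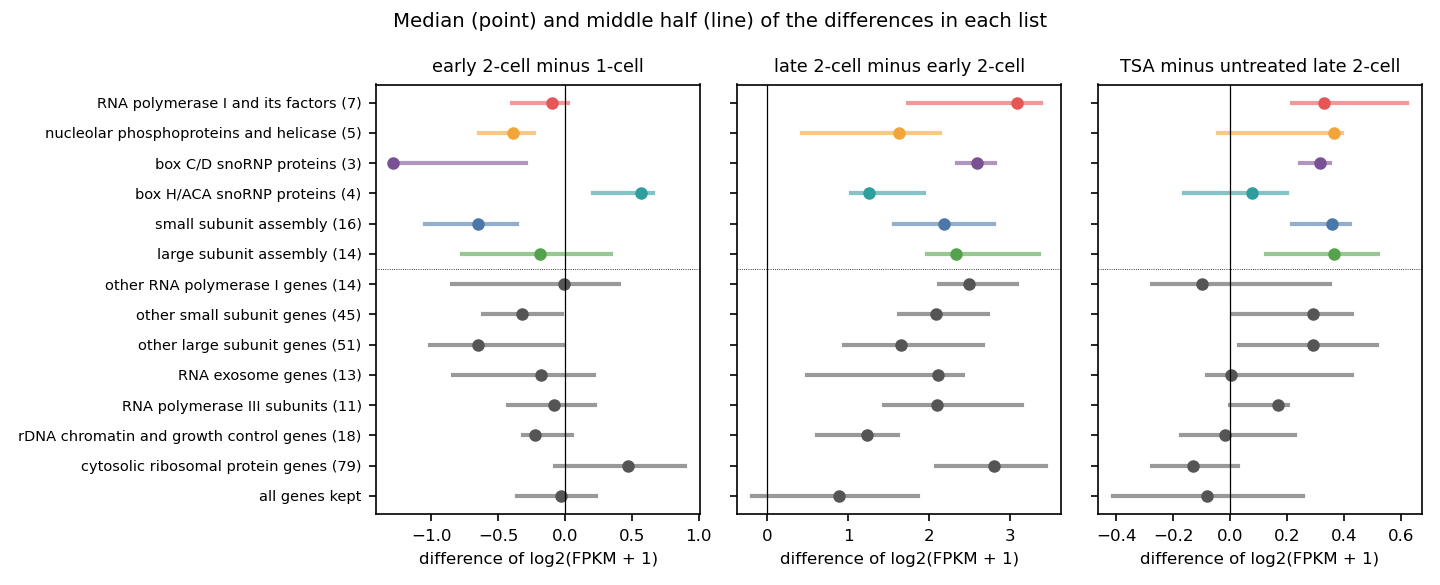
Median (point) and middle 50% (line) of the differences of log2(FPKM + 1) in the 6 protein roles (above the dotted line), in other lists of the pathway and in all genes kept, with the number of genes listed. With TSA the points of both subunit assembly roles and of the other subunit genes lie between 0.29 and 0.37. That of the ribosomal proteins lies at -0.13, and that of all genes kept at -0.08.

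In the list of other RNA polymerase I genes, Polr2f (1.17) and Polr2h (0.86), subunits shared by all 3 nuclear polymerases, were highest at the first step, and Taf1b (-2.16) and Taf1a (-2.12), of the promoter selectivity factor, lowest. At the next step Ttf1, the transcription termination factor, went from 0.276 to 19.9 FPKM (4.03), and the shared subunit Polr2e from 52.9 to 553 (3.36). Twistnb (0.75) and Polr2f (0.82) were lowest, both below 0 under median-ratio scaling. Over both steps Ttf1 (3.79) and Polr2e (3.77) were again highest, and Taf1a (-0.82) and Taf1b (0.04, below 0 under median-ratio scaling) lowest. With TSA, Cd3eap, an RNA polymerase I subunit, was highest (0.59), followed by Polr2e (0.56), and Ttf1 (-0.47) and Polr2k (-0.46) were lowest.

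Among other small subunit genes at 5 FPKM or more, Trmt112 (1.04) and Imp3 (0.79) were highest at the first step, and Dnttip2, at 657 and then 53.9 FPKM (-3.58), and Bms1 (-2.07) lowest. Tbl3 (4.41) and Tsr2 (3.99) were highest at the next step, and Trmt112 (-1.79) and the kinase Riok1 (-1.68) lowest. Over both steps Utp23 (5.07) and Tbl3 (4.39) were highest, and Bms1 (-3.32) and Riok1 (-2.53) lowest. Like Utp18, the GTPase Bms1 was lower at each stage, at 126, 29.3, 11.7 and 13.9 FPKM. With TSA, Wbscr22, a methyltransferase of small subunit RNA, was the 1 gene at least 2-fold higher, at 18.0 against 7.90 FPKM (1.09), and Rrp7a (0.83) came next, with Tsr2 (-0.86) and Riok1 (-0.40) lowest.

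Among other large subunit genes at 5 FPKM or more, Mak16 (1.27) and Pelp1 (0.58) were highest at the first step, and Rbm28 (-2.18) and Pak1ip1 (-2.15) lowest. At the next step Wdr74 (4.26) and Wdr18 (4.25) were highest and Eftud1 (-0.93) and Rsl1d1 (-0.58) lowest, and over both steps Mak16 (5.02), Wdr18 (4.44), Eftud1 (-2.07) and Rsl1d1 (-1.33) held those places. With TSA, again at 5 FPKM or more, Gltscr2 (0.95) and Ppan (0.83) were highest and Rbm34 (-0.35) and Ddx24 (-0.22) lowest.

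In the exosome list Mphosph6, an exosome cofactor, stood apart at 1233, 2156, 259.7 and 248 FPKM, with differences of 0.81, -3.05 and, over both steps, -2.24. C1d (0.51) was also among the highest at the first step, and Exosc9 (-1.40) and the helicase Skiv2l2 (-1.34) were lowest. At the next step Exosc5, a ring subunit, was highest at 52.8 FPKM (4.84), followed by C1d (3.20), and Mphosph6 and Exosc7 (-0.17) were lowest. Over both steps Exosc5 (3.98) and C1d (3.72) were highest, and Mphosph6 and Exosc9 (-1.25) lowest. With TSA the range ran from Exosc5 (0.64) and Exosc2 (0.55) to Dis3 (-0.18) and Exosc1 (-0.82).

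The 79 cytosolic ribosomal protein genes, the cargo of this machinery, had a median of 0.47 at the first step, 2.80 at the next and -0.13 with TSA. The medians of all genes kept were -0.03, 0.89 and -0.08. With TSA 22 of the 79 were above 0, against 43.3% of all genes. Under median-ratio scaling the TSA median of the ribosomal proteins was -0.03 and 34 of 79 were above 0, against 50.6% of all genes. The assembly factors and the ribosomal proteins thus had medians of opposite sign at the first step and with TSA. With TSA the ribosomal protein median lay only 0.05 below that of all genes, and whether the 2 lists differ could not be tested.

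Positions in RefSeq build GRCm38.p6 were found for 49 of the 50 genes, 48 by symbol and Cirh1a by synonym, on 19 chromosomes. Rn45s had no match. Of the 49, 21 overlap another RefSeq gene and 13 a protein-coding gene, and the strand setting of the counting is not given in the sources used here, so reads of overlapping genes may not be told apart. Bysl, at 0.657, 0.259, 4.89 and 6.46 FPKM, overlaps Ccnd3, which was at 28.7 FPKM in both late 2-cell columns, and Nhp2 overlaps Rmnd5b, at 26.6 and 46.7 FPKM there. Ncl, Nop56, Nop58, Dkc1, Wdr43, Tsr1 and Gnl3 overlap 19 small nucleolar RNAs in all, of which 11 are in the table.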

How the data were processed

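The authors deposited log2(FPKM + 1), per the file headers, with 1 value per gene and group. The submitters' processing notes name build mm10 and, without their roles, Bowtie2 2.3.4.3, Cufflinks, deepTools 2.5.7, HISAT2 2.1.0, SAMtools 1.7 and StringTie 1.3.4. How 5 libraries became 1 column is, like the annotation, not given in the sources used here. The 1-cell column was matched by its 13 h name, and 2 columns that match no RNA library in the labels were not used. The chromatin libraries and the libraries of embryos injected with Dux were not analysed here.

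The deposited log2 values were turned back to FPKM (Python 3.11.15, numpy 2.4.6, pandas 2.3.3), and differences of log2(FPKM + 1) were taken for genes with at least 1 FPKM in 1 column or more of those compared (any of the 3 untreated columns for stages). A difference of 1 was counted as 2-fold. No test was possible. The calculation was checked by putting known fold changes, without noise, into a copy of the late 2-cell column, and they were recovered. Pseudocounts of 0.1 and 5, no filter, a minimum of 5 FPKM, median-ratio scaling, quantile normalization and equal column sums with and without Rn45s were tried. The members and gene lists were chosen with earlier results of these data known. Values in all columns were given for the genes of RNA polymerase I, the phosphoproteins and the small nucleolar ribonucleoproteins, and for subunit assembly genes 2-fold apart in any comparison or among the 3 highest and 3 lowest with TSA. Pes1 falls outside this rule and was given, after its values were seen, to complete its complex. Of other lists, the 2 highest and 2 lowest genes of each comparison were named if at least 5 FPKM in either column. Myc and Mycn fall outside this rule and were given, after their values were seen, beside Max. A gene that this rule selects is not reported here.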

Additional observations from a re-analysis of the deposited data

How the results depend on the processing

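No paired analysis was possible because the table holds 1 value per gene and group, and for the same reason no library could be left out. Directions of the members' medians were the same under all 8 alternatives. Median-ratio scaling gave members' medians of 1.31 for late minus early 2-cell (2.20 as deposited) and 0.89 for late minus 1-cell (1.73), and quantile normalization gave 1.37 and 1.00. Median-ratio scaling also gave 22 genes at least 2-fold higher for late minus 1-cell (34 as deposited), against 29.2% of all genes. It gave 2 lower for late minus early and 2 for late minus 1-cell (1 as deposited in each), against 23.0% and 25.5% of all genes. A pseudocount of 5 gave an early minus 1-cell median of -0.24 (-0.39) with 5 genes 2-fold lower (10), against 2.57% of all genes. A pseudocount of 0.1 gave 3 genes 2-fold higher (1), against 8.92% of all genes. For Rn45s, median-ratio scaling gave 0.92 for late minus early, 1.51 for late minus 1-cell and 0.17 with TSA, and quantile normalization gave 3.37, 3.79 and 0. Quantile normalization sets the highest gene of each column to the same value, and Rn45s is that gene in both late 2-cell columns. With TSA the members' median ran from 0.30 to 0.43. The genes above 0 ran from 42 to 46 of the 50, against 33.3% to 50.6% of all genes. Under every alternative 0 of the 50 were 2-fold apart, against 0.698% to 4.81% of all genes higher and 0.721% to 8.42% lower. The number of fragments behind a value is unknown, so the precision of genes under 1 FPKM cannot be given.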

Other observations

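Genes that control ribosomal DNA chromatin and growth, and the subunits of RNA polymerase III, which makes the smallest ribosomal RNA and the transfer RNAs, were described from lists that hold none of the 50 genes. The 17 of 18 chromatin and growth genes kept had a median difference of -0.23 from 1-cell to early 2-cell and 1.23 from early to late 2-cell. Eif4ebp1, a repressor of translation that mTOR inactivates, was at 6.24, 9.81, 381 and 335 FPKM, and its late minus 1-cell difference of 5.72 was the highest of the list. Sirt7, a deacetylase of the nucleolus that associates with RNA polymerase I, was at 13.5, 9.40, 64.0 and 104 FPKM and had the highest TSA difference (0.69). Max, the partner of MYC on the E-box, was at 48.4, 83.1, 66.3 and 38.0 FPKM, higher by 0.77 at the first step and at -0.78 with TSA. Myc itself was at 0.152, 0.394, 0.468 and 1.26 FPKM, and was not kept for the stages. Its relative Mycn was at 0.0928, 0.506, 3.64 and 3.22 FPKM. The histone demethylases Kdm2b and Phf8 were at 27.6, 22.5, 7.34 and 11.3 FPKM and at 147, 123, 104 and 55.2 FPKM. Rptor, of the mTOR complex, was at 3.32, 1.52, 14.8 and 14.2 FPKM, and Rps6kb1, a kinase downstream of it, at 26.4, 18.2, 46.6 and 47.7. Rrp8, a silencing factor of ribosomal DNA, was at 10.9, 6.18, 20.1 and 14.8 FPKM. With TSA the median was -0.02, and 0.06 under median-ratio scaling.

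All 11 RNA polymerase III subunits were kept, with medians of -0.08, then 2.09 and, with TSA, 0.17. Polr3f was at 39.9 FPKM with TSA against 22.0 without (0.83). Polr3g, which replaces its paralogue in early embryos and stem cells, was at 3.22, 6.18, 58.6 and 48.7 FPKM and was the lowest with TSA (-0.26), next to Polr3e (-0.23). Crcp (3.48) and Polr3b (3.30) had the highest late minus early differences, and Polr3a (-1.46) the lowest at the first step.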
